A study of Homo sapiens with 12 samples.

Results

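Heat shock protein 90 (HSP90), small heat shock protein and co-chaperone genes were followed across 12 RNA-seq libraries of HEK-293T cells, a transformed line from human embryonic kidney that expresses SV40 large T antigen. The genes are the 10 whose symbols form a list of names: HSP90AA1, HSP90AB1, HSPB1, HSPH1, HSPA4L, DNAJB1, DNAJA1, BAG3, HSPD1 and HSPE1. They are 10 of the 58290 genes and reporters in the tables, with 68 of the 200403 targets, and all 10 passed the filter on low counts. The list was chosen by name, not by measured values of these libraries, but with earlier results of the same data known.

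The cells held a CIRTS effector, a programmable protein assembled from human parts that a guide RNA directs to an RNA. In the YTHDF2-SMARCA4 group (3 libraries) the effector was CIRTS-3 with YTHDF2 and the guide was directed against SMARCA4; in the YTHDF2-NT group (3 libraries) the same effector had a non-targeting (NT) guide. In the nuclease-SMARCA4 group (3 libraries) the effector was CIRTS-12 with a nuclease and the guide against SMARCA4; in the nuclease-NT group (3 libraries) that effector had the NT guide. The series names the 3 libraries of a group biological replicates, gives no transfection conditions and no batches, and cells without an effector were not analysed here.

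Effector and any batch that went with it cannot be told apart, and the p-values set group differences against the spread between these libraries only. Library totals lay between 9207196 and 18047859 estimated counts, and members had between 417 (BAG3) and 74811 (HSP90AA1) counts in a library. YTHDF2, the gene for which the CIRTS-3 effector is named, had 5653 ± 724 CPM (counts scaled to a common library total) in YTHDF2-SMARCA4, 6619 ± 1307 CPM in YTHDF2-NT, 240.8 ± 32.7 CPM in nuclease-SMARCA4 and 264 ± 17.9 CPM in nuclease-NT libraries (mean ± SD, n = 3). SMARCA4, the guide's target, had 225 ± 17.0 CPM in YTHDF2-SMARCA4, 262 ± 35.4 CPM in YTHDF2-NT, 236 ± 15.4 CPM in nuclease-SMARCA4 and 238 ± 10.7 CPM in nuclease-NT libraries. All 10 HEK-293T marker genes on the list used were at 1 TPM (a level per unit of transcript length) or more, against 1 of 6 fibroblast, 1 of 5 blood and 0 of 3 liver genes. YTHDF2-NT libraries 1 and 2 stood apart from the rest in how gene levels moved with mRNA length: the Spearman correlation, across genes, of a gene's deviation from its mean with its effective length was −0.49 in YTHDF2-NT 1 and 0.43 in YTHDF2-NT 2, against −0.24 to 0.27 in the other 10 libraries.

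Chaperones bind proteins that are unfolded and help them reach or keep their working shape. HSP90 finishes the folding of kinases, steroid receptors and other clients handed over by HSP70; J-domain proteins bring clients to HSP70 and start its ATP hydrolysis, while HSP110 proteins and BAG proteins exchange its nucleotide and release the client. Small heat shock proteins hold unfolding proteins without using ATP, and the HSP60 and HSP10 chaperonin folds proteins inside mitochondria. Heat shock factor 1 (HSF1) raises the transcription of many of these genes by binding heat shock elements, inverted repeats of GAA, and SV40 large T antigen itself carries a J domain that works with HSP70.

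Heat shock elements are the sequence feature the genes are best known for, so stretches that carry them are shown first for 4 genes, with that of HSPH1, whose window held none, for comparison. Matches of DNAJA1, HSPA4L and HSPD1 are counted further on but not printed. Sequences are from RefSeq on GRCh38.p14, 5′ to 3′ on the gene's strand, with matches to GAANNTTC or TTCNNGAA (2 units, each its own reverse complement) in capitals and positions counted from the RefSeq start.
HSP90AA1, chr14:102087104-102087133, minus strand, −89 to −60, in the first exon of HSP90AA1-201: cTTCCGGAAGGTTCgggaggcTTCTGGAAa
HSP90AB1, chr6:44247773-44247853, plus strand, −170 to −90 of its most downstream RefSeq start, in the first intron of the main transcript: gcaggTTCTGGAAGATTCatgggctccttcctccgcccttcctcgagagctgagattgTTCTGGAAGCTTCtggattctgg
HSPB1, chr7:76302423-76302543, plus strand, −250 to −130: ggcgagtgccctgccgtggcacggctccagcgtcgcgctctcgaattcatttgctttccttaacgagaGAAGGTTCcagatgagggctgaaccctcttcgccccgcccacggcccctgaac
DNAJB1, chr19:14518421-14518527, minus strand, −130 to −24: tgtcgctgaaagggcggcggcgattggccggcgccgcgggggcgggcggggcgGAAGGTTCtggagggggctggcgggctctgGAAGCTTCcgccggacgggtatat
HSPH1, chr13:31162389-31162498, minus strand, −110 to −1: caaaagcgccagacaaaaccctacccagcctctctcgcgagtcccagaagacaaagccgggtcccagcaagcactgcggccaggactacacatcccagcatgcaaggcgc

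All 10 genes matched the RefSeq promoter table, with 18 windows that run from 250 bases before to 50 bases after a start. In the window nearest to the start of each gene's main transcript, 5 of 10 genes had a 2-unit element: HSP90AA1 and DNAJA1 with 3 matches each, DNAJB1 with 2, and HSPB1 and HSPA4L with 1 each (the start in the only window of HSPB1 lies 904 bases from that of its main model). A 2-unit element was present in 13.5% of all 35116 windows in the table. The longer form, a 2-unit match followed after any 2 bases by another unit in the opposite orientation, was in the nearest window of 2 genes, HSP90AA1 and DNAJA1, and in 0.490% of all windows; overlapping matches were counted separately.

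Other windows of 2 genes also held the longer form. HSP90AB1 had 4 matches, 2 of them of the longer form, in a window whose start lay 856 bases from that of its main transcript, and HSPD1 had 3, with 2 of the longer form, in a window 434 bases from its main start. The nearest windows of HSP90AB1, HSPH1, BAG3, HSPD1 and HSPE1 held no match. The HSPE1 window (chr2:197500129-197500428) lies close beside the HSPD1 window with matches (chr2:197499791-197500090), so those matches were not counted for HSPE1. CCAAT, on either strand, was found in the nearest window of DNAJB1 alone among the 10 and in 34.6% of all windows. No nearest window held TATAAA on either strand, found in 11.5% of all windows. GGGCGG, on either strand, was in the nearest windows of 9 of 10 genes, HSPH1 being the exception, and in 45.0% of all windows. These are letter matches and not measured binding.

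**Figure D1:**
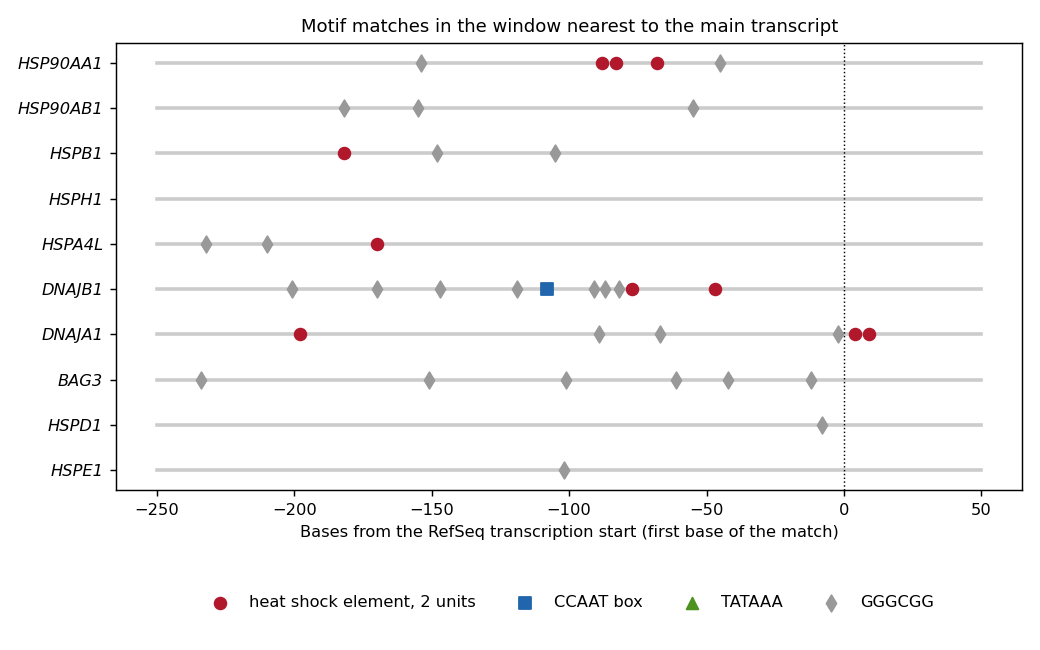
Motif matches in the nearest RefSeq promoter window of each gene, from 250 bases before to 50 bases after the start (x axis, bases from the start; dotted line, the start). Red circles are 2-unit heat shock elements, found in 5 of 10 genes, the blue square is the single CCAAT match and grey diamonds mark GGGCGG. The TATA letters of the legend have no match.

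On GRCh38 with GENCODE 29, HSP90AA1 (ENSG00000080824.18) lies at chr14:102080738-102139699 on the minus strand and HSP90AB1 (ENSG00000096384.19) at chr6:44246166-44253888 on the plus strand. HSPB1 (ENSG00000106211.8) lies at chr7:76302544-76304295 on the plus strand. The HSP110 genes are HSPH1 (ENSG00000120694.19), at chr13:31134974-31162388 on the minus strand, and HSPA4L (ENSG00000164070.11), at chr4:127781821-127840733 on the plus strand. The J-domain genes are DNAJB1 (ENSG00000132002.7), at chr19:14514770-14529770 on the minus strand, and DNAJA1 (ENSG00000086061.15), at chr9:33025211-33039907 on the plus strand. BAG3 (ENSG00000151929.9) lies at chr10:119651370-119677819 on the plus strand. HSPD1 (ENSG00000144381.16) at chr2:197486581-197516737 on the minus strand and HSPE1 (ENSG00000115541.10) at chr2:197499994-197503457 on the plus strand are neighbours read in opposite directions, and their annotated spans overlap.

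Per length, in TPM averaged over the 12 libraries, HSP90AA1 was the most abundant of the mRNAs at 1303 TPM. HSP90AB1 followed at 853 TPM, HSPD1 at 759 TPM and HSPE1 at 677 TPM. A middle tier held HSPB1 at 229 TPM, HSPH1 at 190.0 TPM, DNAJA1 at 174 TPM and DNAJB1 at 101 TPM. Lowest were HSPA4L at 27.6 TPM and BAG3 at 20.9 TPM. These are sums over transcript models, short ones included. The 812-base HSPH1-203 held 30.4% of HSPH1's TPM and the 3570-base HSPH1-209 18.4%, against 99.3% for DNAJA1-201 in DNAJA1. HSPB1-202 (527 bases) held 78.0% of HSPB1's TPM and HSPA4L-202 (2639 bases) 58.2% of HSPA4L's. The order of these genes can thus depend on how reads were assigned to models. HSP90AB1 was above HSPD1 in every library, though their ranges overlapped between libraries. In YTHDF2-NT libraries HSP90AB1 had 789, 973 and 860 TPM (874 ± 92.8 TPM, SD, n = 3). HSPD1 had 679, 901 and 750 TPM there (777 ± 113 TPM). Other neighbours changed order between libraries of a group. In nuclease-NT libraries HSPH1 had 185 ± 12.3 TPM and DNAJA1 181 ± 18.0 TPM (SD, n = 3 each), with DNAJA1 the higher in library 3. In YTHDF2-NT libraries HSPA4L had 25.4 ± 14.1 TPM and BAG3 20.7 ± 3.46 TPM, with BAG3 the higher in library 1.

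Each gene was compared between the effectors with each guide (YTHDF2 over nuclease) and between the guides with each effector (SMARCA4 over NT), and the guide effects were compared between the effectors. Tests were edgeR's quasi-likelihood test over 16297 genes with Benjamini-Hochberg adjustment, and a gene was called at an adjusted p below 0.05. None of the 10 genes was called in any of the 5 comparisons. The values below are therefore given as measured levels and differences, with the called share of all genes beside each count. The guide and effector comparisons share groups of libraries, so their values are not independent; the effector comparisons with the NT and with the SMARCA4 guide share no library. In bulk RNA, fewer cells with a transcript and less of it per cell cannot be told apart.

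**Figure D2:**
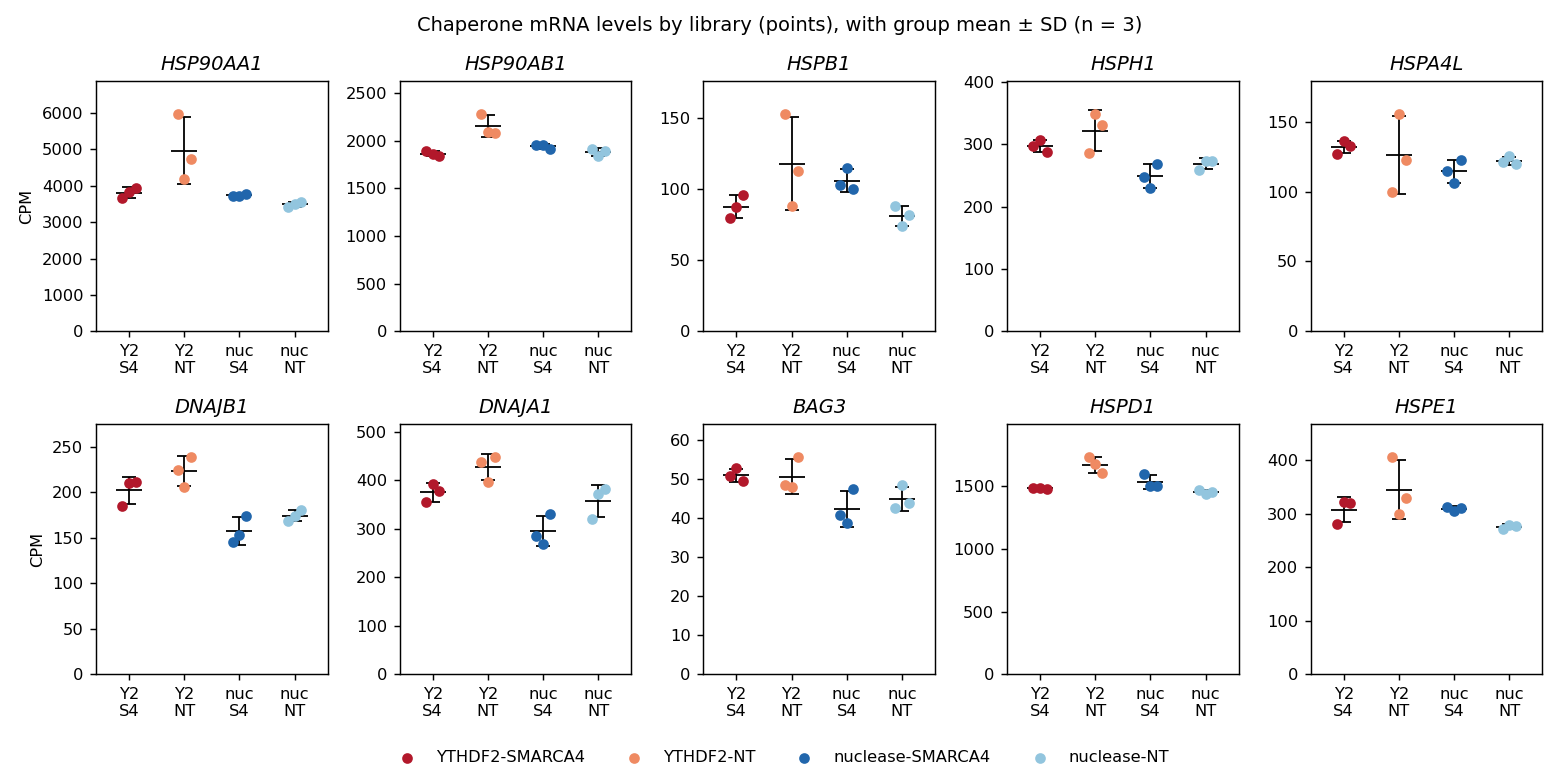
CPM of the 10 genes (y axes, each from 0) in the 12 libraries (points), with the mean and SD of each group of 3 (bars); Y2 is YTHDF2, nuc is nuclease, S4 is the SMARCA4 guide and NT the non-targeting guide. YTHDF2-NT libraries are highest for most genes and spread most for HSP90AA1, HSPB1, HSPA4L and HSPE1.

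HSP90AA1 encodes the heat-inducible cytosolic HSP90. It had 3652, 3829.9 and 3953 CPM in YTHDF2-SMARCA4 libraries 1 to 3, and 5986, 4175 and 4736 CPM in YTHDF2-NT libraries. In nuclease-SMARCA4 libraries it had 3732, 3723 and 3769.9 CPM, and in nuclease-NT libraries 3429, 3491 and 3555 CPM. Every YTHDF2-NT library was above the other 9, and the nuclease groups were tight and did not overlap each other. With the SMARCA4 guide the ratio of YTHDF2 over nuclease libraries was 1.02 (log2 0.03 ± 0.10, SE; adjusted p = 0.94 in edgeR), and with the NT guide 1.42 (log2 0.51 ± 0.10, adjusted p = 0.13 in edgeR). DESeq2 called the difference with the NT guide (adjusted p = 7.8e-04). Between guides the log2 difference was −0.38 ± 0.10 with YTHDF2 and 0.10 ± 0.10 with the nuclease.

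HSP90AB1 encodes the constitutive cytosolic HSP90. In YTHDF2-SMARCA4 libraries it had 1888, 1862 and 1834 CPM, and in YTHDF2-NT libraries 2283, 2089.9 and 2081 CPM. Its levels were 1957, 1953 and 1910.1 CPM in nuclease-SMARCA4 libraries, and 1909, 1837 and 1894 CPM in nuclease-NT libraries. As for HSP90AA1, all 3 YTHDF2-NT libraries stood above the other 9, but by less. The log2 difference of YTHDF2 over nuclease was −0.06 ± 0.06 with the SMARCA4 guide (edgeR adjusted p = 0.73) and 0.19 ± 0.06 with the NT guide (edgeR adjusted p = 0.29, DESeq2 adjusted p = 0.013). Between guides it was −0.21 ± 0.06 with YTHDF2 and 0.05 ± 0.06 with the nuclease.

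HSPB1 encodes HSP27, the small heat shock protein of the list. It had 79.7, 87.5 and 95.4 CPM in YTHDF2-SMARCA4 libraries and 153, 87.9 and 113 CPM in YTHDF2-NT libraries. In nuclease-SMARCA4 libraries it had 102, 115 and 99.95 CPM, and in nuclease-NT libraries 88.0, 73.8 and 81.6 CPM. The YTHDF2-NT group ranged widely, with library 1 the highest of all 12 and library 2 inside the range of the nuclease-NT group. With the SMARCA4 guide the log2 difference of YTHDF2 over nuclease was −0.27 ± 0.15 and with the NT guide 0.54 ± 0.16 (edgeR adjusted p = 0.52 and 0.29). Between guides it was −0.43 ± 0.15 with YTHDF2 and 0.38 ± 0.16 with the nuclease (adjusted p = 0.70 and 0.39). Its mean effective length, weighted by the TPM of its transcript models, was 441 bases, at the 5.19th percentile of all genes. The 527-base model HSPB1-202 held 78.0% of its TPM and the 909-base HSPB1-201 20.2%, so the length follows the assignment of reads. With the trend against length removed from each library, its log2 difference with the NT guide was 0.35 (adjusted p = 0.088).

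HSPH1 and HSPA4L encode HSP110 proteins, relatives of HSP70 that exchange its nucleotide. HSPH1 had 298, 306 and 287 CPM in YTHDF2-SMARCA4 and 285, 349 and 330.4 CPM in YTHDF2-NT libraries. In nuclease libraries HSPH1 had 248, 230.4 and 268 CPM with the SMARCA4 guide and 258, 274 and 273 CPM with the NT guide. All 6 YTHDF2 libraries were above all 6 nuclease libraries. Its log2 differences of YTHDF2 over nuclease were 0.25 ± 0.08 with the SMARCA4 guide and 0.26 ± 0.08 with the NT guide (edgeR adjusted p = 0.31 and 0.29). HSPA4L had 127, 136 and 133 CPM in YTHDF2-SMARCA4 and 99.9, 156 and 123 CPM in YTHDF2-NT libraries. In nuclease libraries HSPA4L had 115, 106 and 122 CPM with the SMARCA4 guide and 121, 126 and 120.0 CPM with the NT guide. Its lowest and highest values were both in the YTHDF2-NT group, in libraries 1 and 2. Its mean effective length, weighted by the TPM of its transcript models, was 4822 bases, at the 90.3rd percentile. The HSPA4L log2 differences were 0.20 ± 0.12 with the SMARCA4 guide and 0.05 ± 0.12 with the NT guide (edgeR adjusted p = 0.54 and 0.92).

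DNAJB1 and DNAJA1 encode cytosolic J-domain proteins that activate HSP70. DNAJB1 had 185, 209.8 and 212 CPM in YTHDF2-SMARCA4 and 224, 206 and 239 CPM in YTHDF2-NT libraries. In nuclease libraries DNAJB1 had 145, 153 and 174 CPM with the SMARCA4 guide and 168, 174 and 180.2 CPM with the NT guide. All 6 YTHDF2 libraries, at 185 CPM or more, were above all 6 nuclease libraries. Its ratio of YTHDF2 over nuclease was 1.29 with the SMARCA4 guide (log2 0.36 ± 0.09, edgeR adjusted p = 0.23) and 1.28 with the NT guide (log2 0.36 ± 0.09, edgeR adjusted p = 0.23). DESeq2 called it in both (adjusted p = 0.021 and 0.018). DNAJA1 had 355, 393 and 377 CPM in YTHDF2-SMARCA4 and 437, 396 and 448 CPM in YTHDF2-NT libraries. In nuclease libraries DNAJA1 had 286, 269 and 330.3 CPM with the SMARCA4 guide and 320.3, 371 and 382 CPM with the NT guide. Its YTHDF2 and nuclease libraries did not overlap within either guide. The log2 difference was 0.35 ± 0.09 with the SMARCA4 guide (edgeR adjusted p = 0.24, DESeq2 adjusted p = 0.048) and 0.26 ± 0.09 with the NT guide (edgeR adjusted p = 0.33, DESeq2 adjusted p = 0.18).

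BAG3, the co-chaperone that releases clients from HSP70 and is known for its part in chaperone-assisted autophagy, had the lowest counts of the list. It had 50.7, 52.8 and 49.5 CPM in YTHDF2-SMARCA4 and 48.4, 47.9 and 55.7 CPM in YTHDF2-NT libraries. In nuclease libraries BAG3 had 40.8, 38.7 and 47.5 CPM with the SMARCA4 guide and 42.6, 48.5 and 43.8 CPM with the NT guide. With the SMARCA4 guide the groups did not overlap (log2 0.27 ± 0.09, adjusted p = 0.34 in edgeR). With the NT guide they overlapped (log2 0.17 ± 0.09, adjusted p = 0.53).

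HSPD1 and HSPE1 encode HSP60 and its lid HSP10, the mitochondrial chaperonin. HSPD1 had 1488, 1485 and 1473 CPM in YTHDF2-SMARCA4 and 1732, 1674 and 1605 CPM in YTHDF2-NT libraries. In nuclease libraries HSPD1 had 1595, 1501 and 1503 CPM with the SMARCA4 guide and 1468, 1435 and 1448 CPM with the NT guide. All 3 YTHDF2-NT libraries were above the other 9. Its log2 difference of YTHDF2 over nuclease was −0.05 ± 0.06 with the SMARCA4 guide (edgeR adjusted p = 0.78) and 0.20 ± 0.06 with the NT guide (edgeR adjusted p = 0.29, DESeq2 adjusted p = 0.0037). HSPE1 had 281, 322 and 319.9 CPM in YTHDF2-SMARCA4 and 406, 299 and 329.9 CPM in YTHDF2-NT libraries. In nuclease libraries HSPE1 had 313, 305 and 310.0 CPM with the SMARCA4 guide and 272, 279 and 278 CPM with the NT guide. Library 1 of YTHDF2-NT was far above the rest, and the nuclease groups were tight and apart. The HSPE1 log2 difference was −0.01 ± 0.10 with the SMARCA4 guide (edgeR adjusted p = 0.98) and 0.32 ± 0.10 with the NT guide (edgeR adjusted p = 0.29).

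HSPE1 also shares sequence with many pseudogenes, so part of its reads could be assigned to copies. Over the 12 libraries HSPE1 had 49779 estimated counts, and its 27 annotated relatives together had 20.8% as many, most of them on HSPE1P3 (9206 counts). Relatives of the other 9 genes held at most 0.907% of the gene's own counts.

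Read over the list, the comparison of YTHDF2-NT with nuclease-NT had differences of a single sign. All 10 log2 differences were positive (for HSPA4L the sign turned under 2 alternatives), with a median of 0.26, against a median of 0.01 over all genes, of which 51.3% were positive. edgeR called 0 of 10, against 0.0491% of all genes, and 8 of 10 had an unadjusted p below 0.05, against 10.9%. DESeq2 called 4 of 10 (HSP90AA1, HSP90AB1, DNAJB1 and HSPD1), against 1.27% of the genes it tested. The groups did not overlap for 7 of 10 genes, each higher in YTHDF2-NT, where 6.86% of all genes were wholly higher (every library above every library of the other group) and 5.96% wholly lower.

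How many of those are called changed with YTHDF2-NT 2, a library that stood apart in length. Without YTHDF2-NT 2, edgeR called HSP90AA1, HSP90AB1, HSPB1, DNAJB1, HSPD1 and HSPE1 (6 of 10), against 9.61% of all genes, with log2 differences of 0.61, 0.21, 0.70, 0.40, 0.19 and 0.40. Without YTHDF2-NT 1, it called HSP90AA1 alone (log2 0.35, adjusted p = 0.040), against 0.0958% of all genes, and HSPB1 was at 0.31 and HSPE1 at 0.19. Leaving out both leaves YTHDF2-NT 3 as the only library of its group, and HSP90AA1 was then at log2 0.44. With 1 library the spread of that group cannot be measured, so no test result is given. The part of the length trend in these differences was not tested beyond a fit with the trend removed, in which 0 of 10 were called and HSP90AA1 was at log2 0.58, DNAJB1 at 0.37 and HSPE1 at 0.16.

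With the SMARCA4 guide, YTHDF2 against nuclease gave a split list. HSPH1, HSPA4L, DNAJB1, DNAJA1 and BAG3 were wholly higher in YTHDF2-SMARCA4 libraries, while HSP90AB1, HSPB1 and HSPD1 were wholly lower, and 13.4% of all genes were wholly higher and 13.4% wholly lower. The median log2 difference was 0.12 over the list and 0.00 over all genes, and 6 of 10 were positive, against 50.1% of all genes. edgeR called 0 of 10, against 0.00614% of all genes, and 4 of 10 (HSPH1, DNAJB1, DNAJA1 and BAG3) had an unadjusted p below 0.05, against 11.5%. DESeq2 called DNAJB1 and DNAJA1, against 0.687% of the genes it tested. Fitted on these 2 groups alone, edgeR called HSPH1, DNAJB1 and DNAJA1 (adjusted p = 0.030, 0.019 and 0.021), against 4.25% of all genes.

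**Figure D3:**
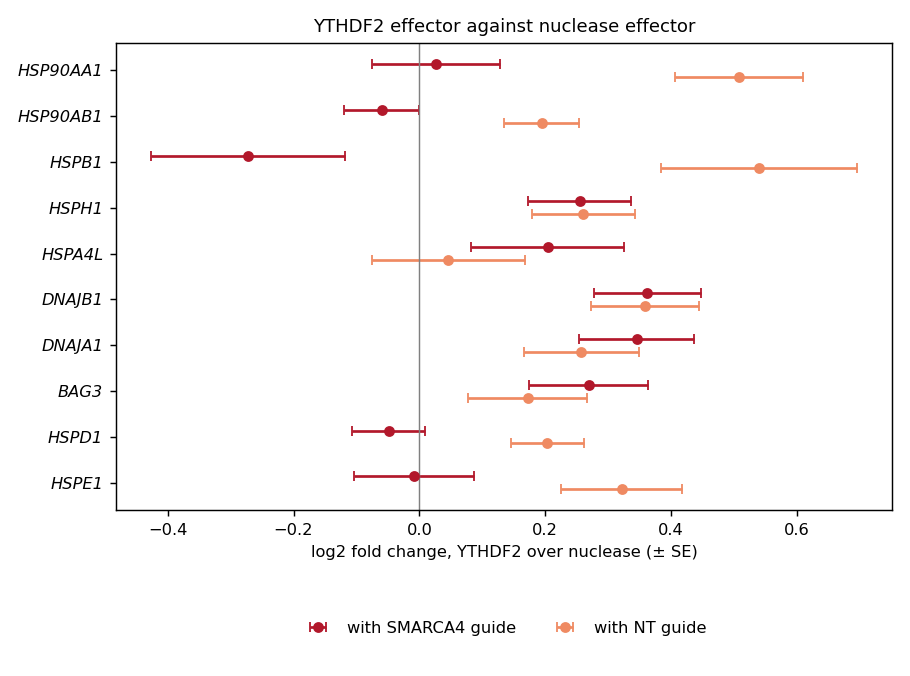
Log2 difference of YTHDF2 over nuclease (x axis) for each gene, with its SE (bars), for the SMARCA4 guide (red) and the NT guide (orange). DNAJB1 and HSPH1 have nearly the same value with either guide (0.36 and 0.36, 0.25 and 0.26), while HSP90AA1 is at 0.03 with the SMARCA4 guide and 0.51 with the NT guide.

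With the YTHDF2 effector, the SMARCA4 guide against the NT guide gave 8 of 10 negative log2 differences. The median was −0.17, against −0.01 over all genes, and 2 of 10 were positive, against 48.2% of all genes. edgeR called 0 of 10 and 0.0% of all genes, and 4 of 10 (HSP90AA1, HSP90AB1, HSPB1 and HSPD1) had an unadjusted p below 0.05, against 6.82%. DESeq2 called 0 of 10 and 0.00289% of the genes it tested. HSP90AA1, HSP90AB1, DNAJA1 and HSPD1 were wholly lower in YTHDF2-SMARCA4 libraries, and 0 of 10 were wholly higher, where 4.98% of all genes were wholly lower and 4.29% wholly higher. Without YTHDF2-NT 2, HSP90AA1 (log2 −0.48), HSP90AB1 (−0.22) and HSPB1 (−0.59) were called by edgeR, against 9.46% of all genes. Without YTHDF2-NT 1 none of the 10 was called, and these values were −0.23, −0.16 and −0.20 (edgeR adjusted p = 1.0 each).

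With the nuclease effector, the same guide comparison gave differences of both signs. The median was −0.02 over the list and 0.00 over all genes, and 5 of 10 were positive, against 49.9% of all genes. HSP90AA1, HSP90AB1, HSPB1, HSPD1 and HSPE1 were wholly higher in nuclease-SMARCA4 libraries and 0 of 10 wholly lower, where 12.8% of all genes were wholly higher and 12.2% wholly lower. edgeR called 0 of 10, against 0.00614% of all genes, and 2 of 10 had an unadjusted p below 0.05, against 10.9%: HSPB1 at log2 0.38 and DNAJA1 at −0.28. DESeq2 called 0 of 10, against 0.972% of the genes it tested. Fitted on the nuclease groups alone, edgeR called HSPB1 (adjusted p = 0.024), against 3.57% of all genes.

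Between the effectors, the guide effect differed by −0.81 ± 0.22 for HSPB1, −0.48 ± 0.14 for HSP90AA1, −0.33 ± 0.14 for HSPE1, −0.25 ± 0.08 for HSP90AB1 and −0.25 ± 0.08 for HSPD1 on the log2 scale (YTHDF2 minus nuclease, ± SE). These 5 genes had an unadjusted p below 0.05, against 11.1% of all genes, and edgeR called none of the 10 and 0.0% of all genes, with adjusted p from 0.31 (HSPB1) to 0.99 (DNAJB1). For the HSP110, J-domain and BAG3 genes the guide effects differed by −0.01 (HSPH1) to 0.16 (HSPA4L). DESeq2 called HSP90AB1 and HSPD1 (adjusted p = 0.049 and 0.039), against 0.401% of the genes it tested. Without YTHDF2-NT 2, edgeR called HSP90AA1, HSP90AB1, HSPB1 and HSPE1, against 8.62% of all genes. Without YTHDF2-NT 1 it called none of the 10, with HSP90AA1 at −0.33, HSPB1 at −0.58 and HSPE1 at −0.20.

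**Figure D4:**
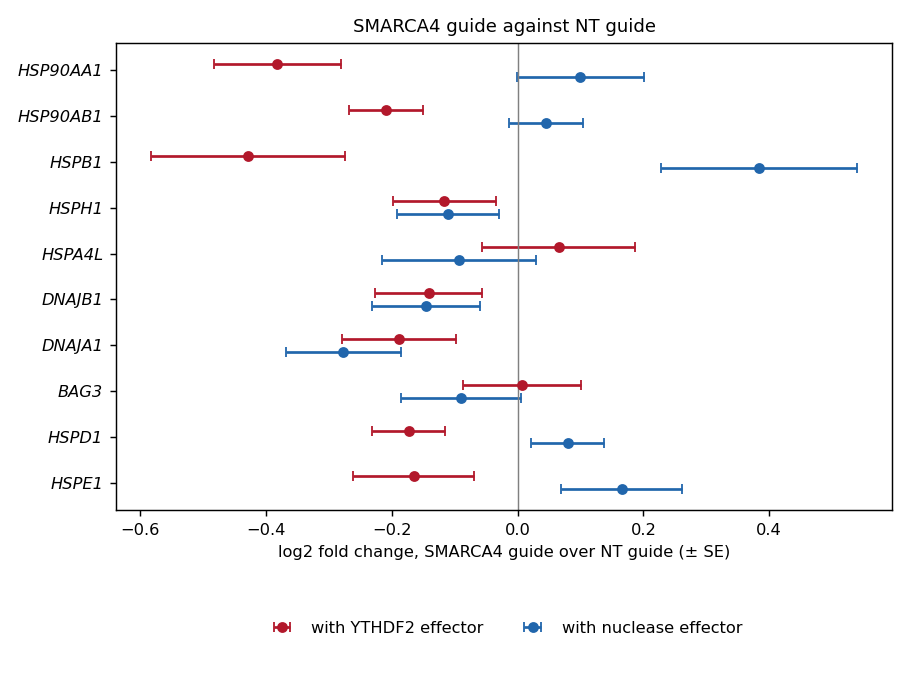
Log2 difference between guides, SMARCA4 over NT (x axis), for each gene, with its SE (bars), with the YTHDF2 effector (red) and the nuclease effector (blue). HSP90AA1, HSP90AB1, HSPB1, HSPD1 and HSPE1 lie below 0 with YTHDF2 and above 0 with the nuclease; none of the differences was called.

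The 10 genes did not follow a single profile over the 12 libraries. Likeness was measured as the root mean square (RMS) difference of log2 CPM after centring each gene. Genes were not scaled, so the measure takes in how far a gene moved as well as its pattern. HSP90AB1 and HSPD1 were the closest pair of the list, at 0.031, and no other gene of the 16297 was nearer to HSP90AB1. DNAJB1 and DNAJA1 were at 0.079, with 5 genes nearer to DNAJB1 and 7 nearer to DNAJA1, and HSPH1 and BAG3 were at 0.093. HSP90AA1 and HSP90AB1, the cytosolic HSP90 genes, were further apart at 0.14, with 569 genes nearer to HSP90AA1. Their SD over the 12 libraries differed, at 0.23 log2 for HSP90AA1 and 0.093 for HSP90AB1, against 0.087 for HSPD1. All of these 3 genes were highest in YTHDF2-NT 1, so the distance is not a difference of pattern alone. HSPD1 and HSPE1, whose starts are neighbours, were at 0.11, with 1285 genes nearer to HSPD1.

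Outside the list, the nearest genes were SNRPD1 (0.047), AC096571.1 (0.052) and PIN4 (0.062) for HSP90AA1, and NUCKS1 (0.034), HNRNPA3 (0.036) and CCT5 (0.042) for HSP90AB1. HSPB1 was nearest to the ribosomal protein genes RPLP2 (0.063), RPL37A (0.068) and RPL38 (0.075). For HSPH1 they were RBM26 (0.063), TOPORS (0.068) and LTV1 (0.070), and for HSPA4L EIF2AK2 (0.038) and CDC27 (0.041). DNAJB1 was nearest to MPHOSPH10 (0.063), PAK1IP1 (0.075) and LTV1 (0.076), and DNAJA1 to PAK1IP1 (0.066), RBM6 (0.070) and the constitutive HSP70 gene HSPA8 (0.072). BAG3 was nearest to RBM39 (0.062), SBDS (0.063) and the HSP70 gene HSPA14 (0.064). HSPD1 lay nearest to HNRNPA3 (0.028), UBE2V2 (0.038) and HTATSF1 (0.041), and HSPE1 to LSM6 (0.040), TOMM5 (0.044) and CISD1 (0.046). The median RMS difference from all genes was between 0.21 (HSPD1) and 0.35 (HSPB1).

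In 5 of the 10 genes a single transcript model held nearly all counts, with 99.3% of HSP90AA1 (HSP90AA1-201), 99.9% of DNAJA1 (DNAJA1-201), 99.4% of BAG3 (BAG3-201), 95.7% of HSPD1 (HSPD1-201) and 94.3% of DNAJB1 (DNAJB1-201). HSP90AB1 was split between HSP90AB1-203 (72.0%) and HSP90AB1-201 (27.4%), and HSPA4L between HSPA4L-201 (65.1%) and HSPA4L-202 (30.6%). HSPB1 had 61.9% of its counts on HSPB1-202 and 33.0% on HSPB1-201. HSPE1 had 52.4% on HSPE1-202, 23.8% on HSPE1-201 and 23.4% on the retained-intron model HSPE1-204. In HSPH1, the nonsense-mediated-decay model HSPH1-206 had 35.5% of the counts, close to the 39.3% of the protein-coding HSPH1-209.

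Of the 68 models, 36 passed the filter, and edgeR called 0 of 36 in each comparison. The background was 0.00808% of the 49518 transcripts tested for the effectors with the SMARCA4 guide and 0.00404% with the NT guide. It was 0.00606% for the guides with YTHDF2, 0.00202% with the nuclease and 0.00606% for their difference. Unadjusted p-values below 0.05 were seen for 5, 9, 8, 4 and 6 of the 36 in that order, against 4.44%, 5.17%, 4.33%, 4.72% and 5.11% of all transcripts tested, and DESeq2 was not run on transcripts. DNAJB1-202, a shorter coding model chosen after its values were seen, had 21.4 ± 7.75 TPM in YTHDF2-SMARCA4, 10.39 ± 10.97 TPM in YTHDF2-NT, 0.036 ± 0.062 TPM in nuclease-SMARCA4 and 2.13 ± 3.69 TPM in nuclease-NT libraries. With the SMARCA4 guide its unadjusted p was 0.0081 and its adjusted p 1.0.

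Around the list, 105 other genes of folding and heat response were read in 9 groups, of which 98 were tested. In YTHDF2 over nuclease, 19 of 98 had an unadjusted p below 0.05 with the SMARCA4 guide (14 higher and 5 lower), against 11.5% of all genes, and with the NT guide 30 of 98 (29 higher and 1 lower), against 10.9%. The medians were 0.05 and 0.13 on the log2 scale. HSPA1B, a stress-inducible HSP70, was at log2 0.70 ± 0.10 with the SMARCA4 guide (edgeR adjusted p = 0.066) and rose with the NT guide (log2 0.72 ± 0.10, edgeR adjusted p = 0.036). It had 1159 ± 24.9 CPM in YTHDF2-SMARCA4, 1308 ± 175 CPM in YTHDF2-NT, 713 ± 87.1 CPM in nuclease-SMARCA4 and 792 ± 35.3 CPM in nuclease-NT libraries. HSPA1B shares reads with the near-identical HSPA1A. Counts of these genes were not summed, so a change in how reads are shared between them was not tested.

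HSPA6, a strictly stress-inducible HSP70, was at log2 −1.16 ± 0.29 with the SMARCA4 guide (edgeR adjusted p = 0.23) and fell with the NT guide (log2 −1.69 ± 0.27, edgeR adjusted p = 0.046). It had 3.85 ± 1.33 CPM in YTHDF2-SMARCA4, 6.16 ± 1.84 CPM in YTHDF2-NT, 8.65 ± 2.36 CPM in nuclease-SMARCA4 and 20.0 ± 4.31 CPM in nuclease-NT libraries. HSPA1B and HSPA6 are both heat-inducible and moved in opposite directions, and a part of HSF1 in this was not tested. No other gene of the 9 groups was called in any comparison, so with the NT guide 2 of 98 were called, against 0.0491% of all genes. The number called with the NT guide was 24 without YTHDF2-NT 2, 2 without YTHDF2-NT 1, 1 without nuclease-SMARCA4 2 or 3, and 0 without any of the other 8 libraries. Of all genes, 9.61% were called without YTHDF2-NT 2 and 0.0958% without YTHDF2-NT 1.

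Among the partners of HSP90, 9 of 17 co-chaperone and paralog genes were positive with the SMARCA4 guide (median 0.02). With the NT guide 15 of 17 were positive (median 0.15), 7 of them with an unadjusted p below 0.05 in edgeR. Of all genes, 50.1% were positive with the SMARCA4 guide and 51.3% with the NT guide. With the NT guide 10.9% of all genes had an unadjusted p below 0.05. HSP90B1, the HSP90 of the endoplasmic reticulum, had 889 ± 41.9 CPM in YTHDF2-SMARCA4, 954 ± 51.9 CPM in YTHDF2-NT, 832 ± 25.2 CPM in nuclease-SMARCA4 and 747 ± 8.12 CPM in nuclease-NT libraries (log2 0.35 ± 0.06 with the NT guide, adjusted p = 0.098 in edgeR). The cytosolic chaperonin TRiC and prefoldin were positive in 7 of 14 genes with the SMARCA4 guide (median −0.01) and in 13 of 14 with the NT guide (median 0.16), with PFDN4 at 0.08 ± 0.09 and 0.35 ± 0.10.

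The other J-domain genes were positive in 15 of 16 with the SMARCA4 guide, against 50.1% of all genes (median 0.10). With the NT guide 12 of 16 were positive, against 51.3% of all genes (median 0.09). DNAJC2 was at 0.20 ± 0.13 with the SMARCA4 guide and 0.50 ± 0.13 with the NT guide. Of the HSF factors, HSF2 had the smallest p, at 0.18 ± 0.08 with the SMARCA4 guide and 0.05 ± 0.08 with the NT guide. In the BAG and nucleotide exchange group ST13 was at −0.01 ± 0.06 and 0.14 ± 0.06, and among mitochondrial folding genes and proteases CLPP was at −0.24 ± 0.12 and 0.14 ± 0.12, in the same order. Of 9 other small heat shock protein genes 3 were tested, with HSPB8 at 0.24 ± 0.22 and 0.31 ± 0.23. FOS, an immediate early gene in the group of other heat-inducible genes, was at 0.96 ± 0.23 with the SMARCA4 guide and 0.51 ± 0.25 with the NT guide (adjusted p = 0.23 and 0.48).

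Between guides, the 98 genes had a median log2 difference of −0.05 with YTHDF2 (29 positive) and 0.04 with the nuclease (61 positive), with 13 and 10 at an unadjusted p below 0.05, against 6.82% and 10.9% of all genes. TRiC and prefoldin genes were positive in 1 of 14 with YTHDF2 and in 13 of 14 with the nuclease (medians −0.12 and 0.09). Of all genes, 48.2% were positive with YTHDF2 and 49.9% with the nuclease.

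**Figure D5:**
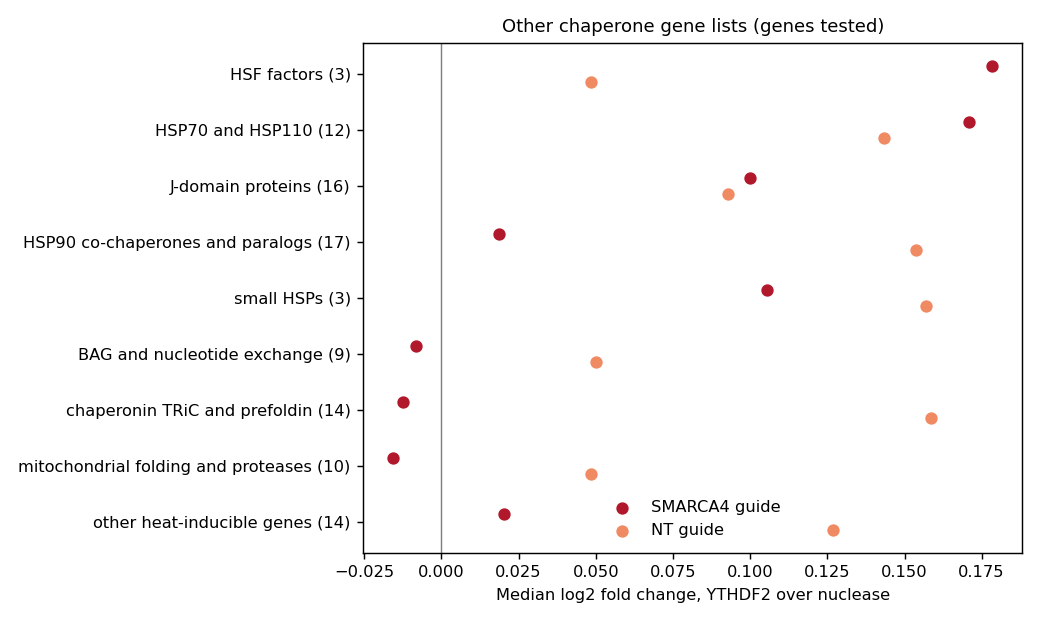
Median log2 difference of YTHDF2 over nuclease (x axis) in 9 other groups of chaperone and heat-response genes, with the number of genes tested in parentheses, for the SMARCA4 guide (red) and the NT guide (orange). TRiC and prefoldin are at −0.01 and 0.16, and HSP70 and HSP110 at 0.17 and 0.14.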

How the data were processed

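Polyadenylated RNA of 12 HEK-293T libraries was analysed. The authors deposited estimated counts and TPM per transcript, made with kallisto on hg38 (sleuth is named as well) per the submitters' processing notes; versions and the strand setting are not given in the sources used here. The deposited TPM are scaled by effective length and hold no information on depth. Kallisto shares reads between similar transcripts. Estimated counts were summed per gene ID and rounded. Genes were tested with edgeR 4.0.16 in R 4.3.3 (quasi-likelihood test, TMM, filterByExpr, 1 mean per group over all 12 libraries, 8 residual degrees of freedom, biological coefficient of variation 11.4%), two-sided, with Benjamini-Hochberg adjustment over 16297 genes. DESeq2 1.42.0 was an alternative. CPM use TMM-adjusted totals; log2 CPM for likeness used a prior count of 2. For single genes, an exact permutation test of 3 against 3 cannot go below p = 0.1, so none is printed. Members and lists were chosen with earlier results of these data known. Named genes were the 10 members in every comparison, the gene or genes with the smallest p in each other list, and the 3 genes nearest to each member, of which 1 is not reported here. The fit without YTHDF2-NT 1 and 2, the fit with copies added and the length fit with a replicate block were chosen after seeing the data.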

Additional observations from a re-analysis of the deposited data

Results flagged for a closer look

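For 3 genes the guide effect had opposite signs with the effectors in every library. HSP90AA1, HSP90AB1 and HSPD1 were each lower in every YTHDF2-SMARCA4 library than in any YTHDF2-NT library, and higher in every nuclease-SMARCA4 library than in any nuclease-NT library. Of all genes, 4.98% were wholly lower in the first comparison and 12.8% wholly higher in the second. The share with both was not counted, so the pattern is not shown to be particular to these genes. They were picked by these values, so the tests below are not independent of that choice. The difference of the guide effects (YTHDF2 minus nuclease, log2) was −0.48 for HSP90AA1, −0.25 for HSP90AB1 and −0.25 for HSPD1. In edgeR's interaction test the adjusted p was 0.37, 0.38 and 0.38, and in DESeq2 it was 0.13, 0.049 and 0.039. The YTHDF2-NT group includes the libraries that stood apart in length; without YTHDF2-NT 1 the differences were −0.33, −0.21 and −0.23 (edgeR adjusted p = 0.24, 0.36 and 0.35), without YTHDF2-NT 2 they were −0.58, −0.27 and −0.24 (edgeR adjusted p = 0.021, 0.044 and 0.059), and with the length trend removed −0.59, −0.30 and −0.27 (edgeR adjusted p = 0.23, 0.15 and 0.11).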

How the results depend on the processing

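Of 1140 log2 differences (50 pairs of gene and comparison under up to 23 alternatives), 40 changed sign, in 9 pairs. The cause was not tested. Over the 12 fits that leave out 1 library, 567 kept direction and side of the threshold, 14 became called and 19 changed sign. Calls over all alternatives are not summed, because they would take in the fit without YTHDF2-NT 1 and 2. Counts of the 10 genes called, 0 in each comparison, are given in the order effector with NT guide, effector with SMARCA4 guide, guide with YTHDF2, guide with nuclease, difference of guide effects. They were 4, 2, 0, 0 and 2 with DESeq2, and 3, 2, 2, 1 and 2 with no filter on low counts. Fitted on the groups compared they were 0, 3, 0 and 1. The fit without YTHDF2-NT 1 and 2 leaves that group 1 library, so its calls are not given. Leaving out each library gave 0 to 6, 0 to 0, 0 to 3, 0 to 0 and 0 to 4, all calls coming without YTHDF2-NT 1 or 2. Counts of all genes called, 8, 1, 0, 1 and 0, were 103, 91, 1, 135 and 48 with DESeq2, 360, 296, 214, 333 and 493 with no filter, and ranged over 1 to 1610, 1 to 70, 0 to 1585, 0 to 44 and 0 to 1444 without 1 library. In the 9 other groups of genes, calls ranged over 0 to 24, 0 to 2, 0 to 15, 0 to 1 and 0 to 16.

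The replicate numbers are not said to pair the libraries, and no pairing showed in the values. Deviations of same-numbered libraries correlated between −0.057 and 0.055, though those of YTHDF2-NT 1 and 2 also hold their length trends. With the number as a block 0 of 10 genes were called in each comparison, against 4, 3, 0, 2 and 1 of all genes.

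Sign changes were all of small values. For HSPH1 the difference of guide effects, −0.01, was 0.0018 with DESeq2 size factors, 0.0030 with DESeq2, 0.0001 with no filter, 0.020 with the length trend removed, 0.023 with the block too and 0.16 on protein-coding transcripts only, where its guide difference with YTHDF2, −0.12, was 0.086. BAG3's guide difference with YTHDF2, 0.01, was −0.019 without the length trend, −0.017 with the block too and −0.13 without YTHDF2-NT 1 and 2, where its difference of guide effects, 0.10, was −0.038. For DNAJB1 that difference was −0.0046, −0.0017 and −0.095 under the same settings. With the SMARCA4 guide, HSP90AA1 was −0.0047 and −0.0038 without the length trend, and HSPE1 0.079 and 0.078, with 0.013 on length-scaled TPM counts and 0.0036 with pseudogene counts added. With the NT guide, HSPA4L was −0.047 on length-scaled counts. Leaving out 1 library, the difference of guide effects ranged over −0.085 to 0.064 for HSPH1 and −0.053 to 0.083 for DNAJB1. BAG3's guide difference with YTHDF2 ranged over −0.026 to 0.081. With the SMARCA4 guide HSP90AA1 ranged over −0.0023 to 0.056 and HSPE1 over −0.043 to 0.051. HSPA4L ranged over −0.14 to 0.19 with the NT guide and −0.077 to 0.25 between guides with YTHDF2. The guide difference of HSPH1 with YTHDF2 (−0.20 to −0.048) and BAG3's difference of guide effects (0.035 to 0.18) kept their signs. Elements of 3 units were in the nearest promoter windows of 2 genes, against 5 with 2 units. With 3 libraries per group and 417 or more counts per gene, the spread between libraries sets the precision.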
